A study of Mus musculus with 12 samples.

Results

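The glutathione transferase pi genes of the mouse, Gstp1, Gstp2 and Gstp3, were followed through 12 ATAC-seq libraries of 4T1 mammary carcinoma and B16F10 melanoma cells grown with or without DAC. The members are the 3 of 21938 protein-coding genes of the GENCODE annotation that carry these symbols, and their transcripts begin at 5 of the 48607 start sites of all those genes. A start site here is a chain of transcript starts of a gene, each within 1000 bp of the next, so that a site can be longer than 1000 bp. It is called in a library when a deposited peak reaches into the window of 1000 bp on either side of any of its starts. The genes were selected on the peak calls of these same libraries, so their calls and peak strengths are given as a description and carry no test.

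DAC (decitabine) is a cytosine analogue. Once copied into new DNA it captures DNA methyltransferase 1, and dividing cells lose methylation. The 4 groups held 3 libraries each. They were 4T1 cells given 1 µM DAC for 48 h, untreated 4T1 cells, B16F10 cells given 0.1 µM DAC for 48 h, and untreated B16F10 cells, and the labels give no allele or transgene for either line. Dead cells had been taken out with magnetic beads before transposition. The doses differed between the lines, so a difference between lines under DAC cannot be told apart from the dose. Nothing in the labels says that replicates came from separate cultures, so that the spread between libraries may be technical.

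Pi-class glutathione transferases join glutathione to electrophiles, including products of oxidative damage and several anticancer drugs, which are then exported from the cell. The human GSTP1 promoter is a known target of DNA methylation in cancer, above all in prostate carcinoma. In the mouse, Gstp1 and Gstp2 are a tandem pair of near copies, and Gstp1 encodes the main pi-class enzyme of liver. Gstp3 is a more distant relative beside them. ATAC-seq inserts sequencing adapters into DNA that is not wrapped by nucleosomes, and a peak marks a stretch with more insertions than its surroundings.

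All 3 genes lie on chromosome 19 of mm10 and are read from the minus strand. Gstp1 (ENSMUSG00000060803.6) spans chr19:4035407-4037985, Gstp2 (ENSMUSG00000038155.11) spans chr19:4040285-4046023, and Gstp3 (ENSMUSG00000058216.13) spans chr19:4057477-4059569. Gstp1 has a main start at its 5′ end and an internal start further into the gene. Gstp2 has a proximal start, 4278 bp upstream of the main start of Gstp1, and an upstream start 8038 bp from it that opens an alternative first exon. Gstp3 has a single start, 21584 bp from that of Gstp1.

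The sequences over 4 of the starts, all but the internal one, are shown because the promoters of Gstp1 and of the proximal Gstp2 start are near copies with different peak calls. Each runs from 250 bases before to 50 bases after the start, 5′ to 3′ on the minus strand. The first 3 are from RefSeq (GRCm38.p6) and the last was read from the GRCm38 genome. The RefSeq starts of the first 3 lie downstream of the outermost GENCODE starts, chr19:4037985, chr19:4042263 and chr19:4059569. Distances between starts and summit positions given elsewhere are measured from the GENCODE starts. They lie at chr19:4037863-4038162 (Gstp1), chr19:4042172-4042471 (Gstp2, proximal), chr19:4059398-4059697 (Gstp3) and chr19:4045974-4046273 (Gstp2, upstream). Capitals mark the AP-1 letters TGANTCA, the Sp1 box GGGCGG and the TATA core TATAA, each on either strand, with overlapping matches on the 2 strands joined (TTATAA).
Gstp1: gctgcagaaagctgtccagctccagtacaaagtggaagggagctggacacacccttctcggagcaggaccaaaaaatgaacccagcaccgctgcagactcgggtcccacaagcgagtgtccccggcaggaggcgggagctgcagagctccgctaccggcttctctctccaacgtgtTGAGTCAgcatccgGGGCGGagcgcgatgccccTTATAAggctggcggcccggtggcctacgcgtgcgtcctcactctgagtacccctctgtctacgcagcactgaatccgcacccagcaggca
Gstp2, proximal start: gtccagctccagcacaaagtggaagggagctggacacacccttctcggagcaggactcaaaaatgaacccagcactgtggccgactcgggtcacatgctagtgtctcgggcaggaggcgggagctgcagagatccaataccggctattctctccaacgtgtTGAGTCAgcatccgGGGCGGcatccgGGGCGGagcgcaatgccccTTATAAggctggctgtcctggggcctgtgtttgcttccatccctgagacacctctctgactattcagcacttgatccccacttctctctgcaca
Gstp3: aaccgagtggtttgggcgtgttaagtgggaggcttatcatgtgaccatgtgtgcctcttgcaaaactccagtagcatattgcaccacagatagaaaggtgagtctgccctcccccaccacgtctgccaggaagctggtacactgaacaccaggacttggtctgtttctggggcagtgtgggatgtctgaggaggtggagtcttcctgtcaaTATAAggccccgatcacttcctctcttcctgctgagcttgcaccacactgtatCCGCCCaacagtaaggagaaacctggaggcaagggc
Gstp2, upstream start: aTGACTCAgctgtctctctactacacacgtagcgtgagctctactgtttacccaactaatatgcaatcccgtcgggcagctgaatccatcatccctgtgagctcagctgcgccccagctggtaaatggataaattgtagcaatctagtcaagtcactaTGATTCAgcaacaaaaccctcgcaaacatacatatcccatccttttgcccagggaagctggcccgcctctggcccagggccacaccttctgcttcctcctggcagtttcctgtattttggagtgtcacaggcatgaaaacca

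Gstp1 and Gstp2 were alike in 243 of 282 aligned promoter bases (86.2%). Both hold the AP-1 letters, the Sp1 box and the TATA core in this order. The AP-1 letters lie 74 bases before the RefSeq start in Gstp1 and 89 bases before it in Gstp2. The Sp1 box occurs 1 time in Gstp1 and 2 times in Gstp2. The Gstp3 promoter was 64.8% identical to that of Gstp1 and 59.4% to that of Gstp2, and has no AP-1 match. The upstream promoter of Gstp2 was 56.1 to 60.1% identical to the other 3 and has 2 AP-1 matches, 249 and 92 bases before its start, and none of the TATA or Sp1 letters.

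Among 32851 RefSeq promoters of the same length, 7.81% held the AP-1 letters, 35.7% the Sp1 box and 24.9% the TATA core. The antioxidant response core TGACNNNGC, in 12.4% of promoters, occurred only in the upstream Gstp2 promoter among the 4, where it overlaps the first AP-1 match. CCAAT, in 37.4%, occurred only in the proximal Gstp2 promoter. The full TATA box TATAAA (13.6%) and the E-box CACGTG (7.15%) matched none of the 4 on either strand. CpG dinucleotides numbered 20 at Gstp1, 12 at the proximal start of Gstp2, 5 at Gstp3 and 7 at the upstream start of Gstp2, and the median of all promoters was 7.

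The lists held between 50126 and 119795 peaks. DAC lists were longer in 4T1, with 111779, 119795 and 109188 peaks against 90608, 95101 and 92930 in controls. They also had a lower median fold enrichment, between 5.60 and 6.05 in 4T1 DAC libraries and between 8.07 and 8.38 in 4T1 controls. In B16F10 the medians lay between 7.49 and 7.67 under DAC and between 8.21 and 8.64 in controls. Fold enrichment is the peak caller's ratio of summit signal to background around it, taken within 1 library, so beside it each peak's strength percentile is given, its rank by −log10 q among all peaks of that library. The lists hold no read counts, and the depth behind each peak is unknown here. Of 7 epithelial markers, all 7 were called in every 4T1 DAC and control library, against 3 in all B16F10 DAC and 2 in all B16F10 control libraries. Of 7 melanocyte markers, 3 were called in all 4T1 DAC and 2 in all 4T1 control libraries, against 6 in all B16F10 DAC and 6 in all B16F10 control libraries. Dct, Mlana and Tyrp1 had no peak in 4T1, and Cdh1, Epcam, Krt8 and Krt18 had none in B16F10. The leukocyte genes Ptprc, Cd3e and Itgam had no peak in any library.

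The main start of Gstp1 had a peak in 12 of 12 libraries, as did 25.4% of all start sites. Its fold enrichment was 11.6, 11.4 and 13.2 in 4T1 DAC libraries (12.1 ± 1.01, SD, n = 3), against 16.6, 18.1 and 18.1 in 4T1 controls (17.6 ± 0.898, SD, n = 3). Every DAC library was below every control. The ratio of the means was 0.686, and 9.27% of the 16309 start sites called in all 6 4T1 libraries had a lower one. Those sites had a median ratio of 0.961, and 38.9% of them were lower and 18.8% higher in every DAC than in every control library.

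By rank the 4T1 groups overlapped at this start, with percentiles of 81.3 ± 1.304 under DAC and 83.1 ± 1.32 in controls (SD, n = 3 each). The difference was −1.80 points beside a median of 2.74 points over the 16309 sites, and 13.2% of the sites had a lower one. With equal list lengths it was −6.13 points, and leaving out 1 library gave −2.55 to −1.13 points, the last without 4T1 DAC replicate 1. The percentile was higher in every DAC than in every control library at 57.6% of those sites and lower at 10.1%. In B16F10 the fold enrichment was 5.86, 6.49 and 6.63 under DAC (6.33 ± 0.408), against 6.55, 7.15 and 6.82 in controls (6.84 ± 0.302, SD, n = 3 each). These groups overlapped, as did the percentiles, 64.3 ± 5.04 under DAC and 65.6 ± 1.18 in controls. The Gstp1 promoter was thus a called region of both lines with and without DAC, and 4T1 libraries gave it the higher fold enrichment and the higher rank.

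The proximal start of Gstp2, the near copy of the Gstp1 promoter, had a peak in 3 of 3 4T1 DAC libraries and in 0 of 3 4T1 controls. Of all 48607 start sites, 3.38% were called in this way in 4T1, and of the 29922 sites without a call in a 4T1 control 5.49% gained one in every DAC library. The 3 peaks were narrow, 163 to 189 bp, with fold enrichments of 3.54, 3.18 and 2.68 and −log10 q of 20.2, 17.3 and 8.59. Their percentiles were 45.4, 42.2 and 24.0, so they stood below the middle of their libraries' lists. A missing peak says that no interval passed the caller's threshold of q 0.05, not that no insertion fell there. With each 4T1 list shortened to its 89780 strongest peaks, the calls stayed at 3 of 3 and 0 of 3. With peaks under a fold enrichment of 5 left out, no 4T1 library had one.

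In B16F10 the same start had a peak in 6 of 6 libraries. Fold enrichment was 9.81, 8.14 and 8.98 under DAC (8.98 ± 0.836) and 9.91, 10.1 and 9.08 in controls (9.68 ± 0.528, SD, n = 3 each), and the groups overlapped. Percentiles of 78.0 ± 1.62 under DAC and 75.4 ± 1.96 in controls also overlapped. The B16F10 peaks were wider than those of 4T1, 386 to 425 bp under DAC and 429 to 590 bp in controls. A call in all 6 B16F10 libraries and the 3 4T1 DAC libraries, with none in 4T1 controls, was shared by 164 start sites (0.337%).

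The upstream start of Gstp2 had the opposite pattern. In 4T1 it was called in 6 of 6 libraries, with the highest ranks of the 5 start sites. Fold enrichment was 16.04, 14.95 and 15.81 under DAC (15.6 ± 0.572) and 19.49, 20.41 and 20.95 in controls (20.3 ± 0.741, SD, n = 3 each), with no overlap between the groups. The ratio was 0.769, and 15.9% of start sites called in all 6 had a lower one. Percentiles overlapped, at 92.6 ± 0.455 under DAC and 94.1 ± 0.849 in controls.

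In B16F10 this upstream start had a peak in 3 of 3 DAC libraries and in 0 of 3 controls, a call made at 0.42% of all start sites and at 0.618% of the 33029 without a control call. The fold enrichments were 5.15, 6.22 and 5.93, the −log10 q 13.7, 24.7 and 18.3, and the percentiles 44.1, 57.8 and 52.8. The peaks were 263 to 343 bp wide. The lists of B16F10 DAC libraries, with 54631, 58468 and 54546 peaks, were longer than those of controls, with 53807, 50126 and 53834, and the calls stayed the same with each list held to its 49622 strongest peaks. They also stayed the same with peaks of fold enrichment of at least 5 alone. With a window of 2000 bp, 1 control library had a call, through a separate peak further upstream at chr19:4047997-4048335. Calls in all 6 4T1 and the 3 B16F10 DAC libraries, and in no B16F10 control, were made at 99 start sites (0.204%).

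Gstp2 was therefore called at one start in all libraries of a line and at the other under DAC alone, with the roles of the 2 starts exchanged between the lines. Of the 12355 genes with 2 or more start sites, 511 (4.14%) had a start called in DAC libraries alone beside another called in all 6 in 4T1, and 127 (1.03%) had this in B16F10. Counted by gene, with any start of the gene, 969 genes (4.42%) were called in DAC libraries alone in 4T1 and 62 (0.283%) in B16F10. None of the 3 members was among them, since another start of Gstp2 was called in the controls of each line.

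**Figure D1:**
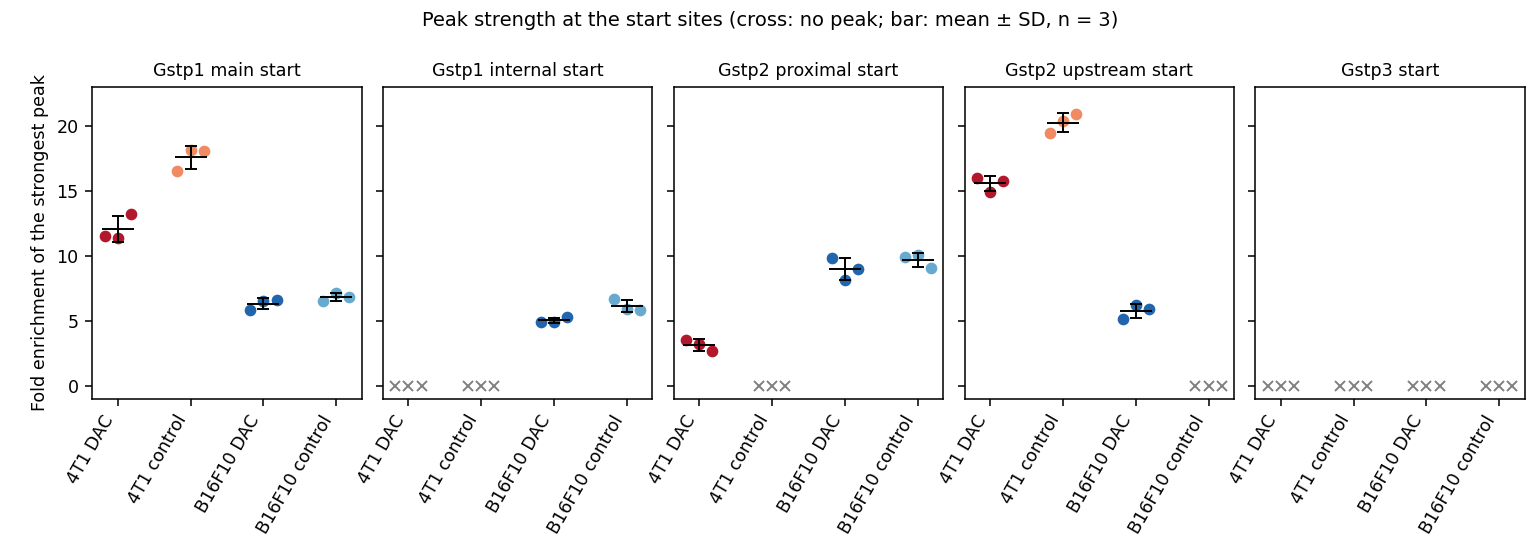
Fold enrichment (linear axis) of the strongest peak at each of the 5 start sites, 1 point per library, with the mean ± SD (n = 3) where all 3 libraries of a group had a peak and a cross where a library had none. The proximal start of Gstp2 has crosses in 4T1 controls and points near 3 in 4T1 DAC, and the upstream start has crosses in B16F10 controls and points between 5.15 and 6.22 in B16F10 DAC.

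The position of the summit within the upstream Gstp2 peak also differed in 4T1. It lay 190, 169 and 190 bp upstream of the start in DAC libraries, against 63, 62 and 62 bp in 4T1 controls. In B16F10 DAC libraries it lay 63, 63 and 60 bp upstream, at the place of the untreated 4T1 summits. The 150 bases around the summit held 6, 5 and 6 CpG in 4T1 DAC libraries, 2 in each 4T1 control and 2 in each B16F10 DAC library. A shift of at least 100 bp to one side in every pair of DAC and control libraries occurred at 3.84% of 4T1 start sites called in all 6, and this measure was chosen after the summits were seen. At the other starts called in all 6 libraries of a line, the summits of DAC and control libraries overlapped in range. In B16F10 they lay 427 to 465 bp upstream of the internal Gstp1 start under DAC and 427 to 561 bp in controls. At the proximal Gstp2 start in B16F10 they lay 51 to 60 bp upstream under DAC and 12 to 75 bp in controls. At the main start of Gstp1 they lay between 38 bp inside and 6 bp upstream of the GENCODE start in 4T1. In B16F10 they lay between 55 and 32 bp inside it.

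The internal start of Gstp1 was called in 6 of 6 B16F10 libraries and in 0 of 6 4T1 libraries, as were 1.34% of start sites. The peak has its summit 427 to 561 bp upstream of that start and so lies inside the gene. Fold enrichment was 4.92, 4.90 and 5.26 under DAC (5.03 ± 0.202) and 6.66, 5.90 and 5.79 in controls (6.12 ± 0.472, SD, n = 3 each). Every DAC library was below every control, as at 29% of the 13574 start sites called in all 6 B16F10 libraries. The peak was 500 to 701 bp wide under DAC and 936 to 1076 bp in controls. Percentiles overlapped, at 41.4 ± 4.42 under DAC and 50.9 ± 7.27 in controls, a difference of −9.47 points below which 1.27% of those sites fell. Leaving out 1 library gave −12.6 to −5.51 points, the last without B16F10 control replicate 1.

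The stretch under this gene body peak is shared with Gstp2. Between the 2 genes 850 of 885 aligned bases were identical (96.0%), the match in Gstp2 being chr19:4040957-4041868. Only 58.9% of 36-base windows under the B16F10 control peaks occurred once in the genome, and 71.4% of 150-base windows did. The matching stretch of Gstp2 held no peak in any library. Reads from it cannot be told apart from Gstp1 reads where the windows are shared, and the handling of such reads by the aligner is not known here.

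Unlike the Gstp1 gene body peak, the peaks at the main Gstp1 start and at the Gstp2 starts were largely or wholly distinct in sequence. The starts joined into the proximal Gstp2 site run from chr19:4040883 to chr19:4042263. That site so takes in the stretch shared with Gstp1, which held no peak. All windows of 36 to 150 bases under the 4T1 DAC peaks at the proximal start of Gstp2 occurred once in the genome, as did all those under the upstream Gstp2 peaks and over the whole Gstp3 gene. Of the 36-base windows under the B16F10 peaks of the proximal Gstp2 start, 89.7% were unique, and all were from 75 bases on. At the main start of Gstp1, 95.9% of 36-base windows under the 4T1 control peaks were unique, and all from 75 bases on. The spliced transcripts of Gstp1 and Gstp2 were 95.7% identical, and either was 73.4 to 73.9% identical to that of Gstp3.

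A further copy, the annotated pseudogene Gstp-ps, lies on chromosome 1 (chr1:192073820-192074450) and is 99.2% identical to the Gstp2 transcript. It had 0 peaks within 1000 bp in 12 of 12 libraries, and the nearest peak was 2832 bp away. It shared 6.67% of the 36-base windows under the B16F10 proximal Gstp2 peaks, and none from 75 bases on.

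**Figure D2:**
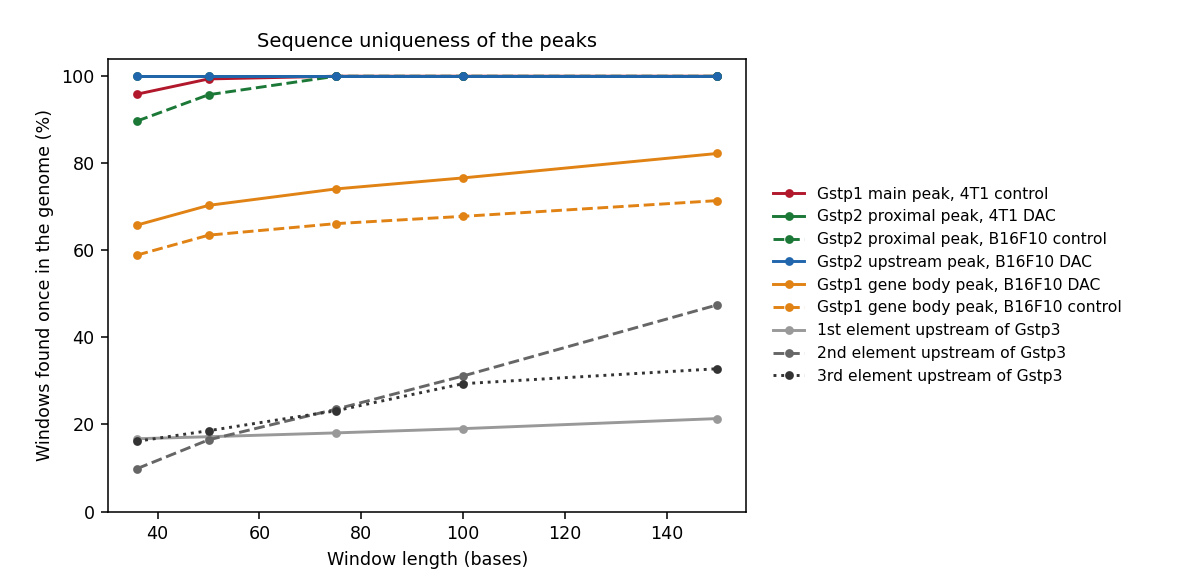
Share of windows that occur once in the GRCm38 genome (y axis, %) against window length (x axis, bases) for the stretches under member peaks and 3 elements upstream of Gstp3. The peaks at the main Gstp1 start and the Gstp2 starts reach 100% by 75 bases. The Gstp1 gene body peaks end at 82.3 and 71.4%, and the upstream elements stay below 50.

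Gstp3 had no peak at its start in 12 of 12 libraries, as did 50.5% of all start sites. It also had none in its gene body. The nearest regions were a pair just downstream of its 3′ end, each called in one line. The first, chr19:4056101-4056667, had a peak in 6 of 6 4T1 and in 0 of 6 B16F10 libraries. Its fold enrichment was 8.04, 9.07 and 8.87 under DAC and 12.42, 10.86 and 12.97 in controls, without overlap, while its percentile was higher in every DAC library (63.3, 68.3 and 67.2) than in any control (55.5, 50.8 and 59.3). The second, chr19:4056791-4057299, had a peak in 2 of 3 B16F10 DAC and 3 of 3 B16F10 control libraries and in no 4T1 library.

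Upstream of Gstp3 stood 3 elements called in every 4T1 library, and 2 of them had no peak in B16F10. The element at chr19:4065752-4066473 had fold enrichments of 5.44, 4.44 and 5.58 under DAC and 3.80, 3.44 and 3.46 in controls. Its percentiles were 60.6, 54.5 and 61.1 under DAC against 22.4, 20.9 and 19.3 in controls, a difference of 37.9 points without overlap. That at chr19:4061293-4061853 had percentiles of 47.4, 59.3 and 50.1 under DAC and 11.5, 29.5 and 24.0 in controls, a difference of 30.6 points, and its fold enrichments overlapped. The element between them, chr19:4062956-4063799, went the other way in fold enrichment, with 8.39 ± 0.461 under DAC and 14.0 ± 1.01 in controls (SD, n = 3 each), and had percentiles that overlapped. It was also called in 1 of 3 B16F10 DAC and 1 of 3 B16F10 control libraries.

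Of the 66837 merged regions called in all 6 4T1 libraries, 43.9% had a higher and 18.7% a lower percentile in every DAC than in every control library, with a median difference of 2.78 points. By fold enrichment 55.9% were lower and 12.3% higher in every DAC library, and the median ratio was 0.849. The 3 elements are 83.8 to 90.9% repeat-masked, and 9.89 to 16.7% of their 36-base windows and 21.4 to 47.5% of their 150-base windows occurred once in the genome. The part of shared sequence in their values was not tested.

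**Figure D3:**
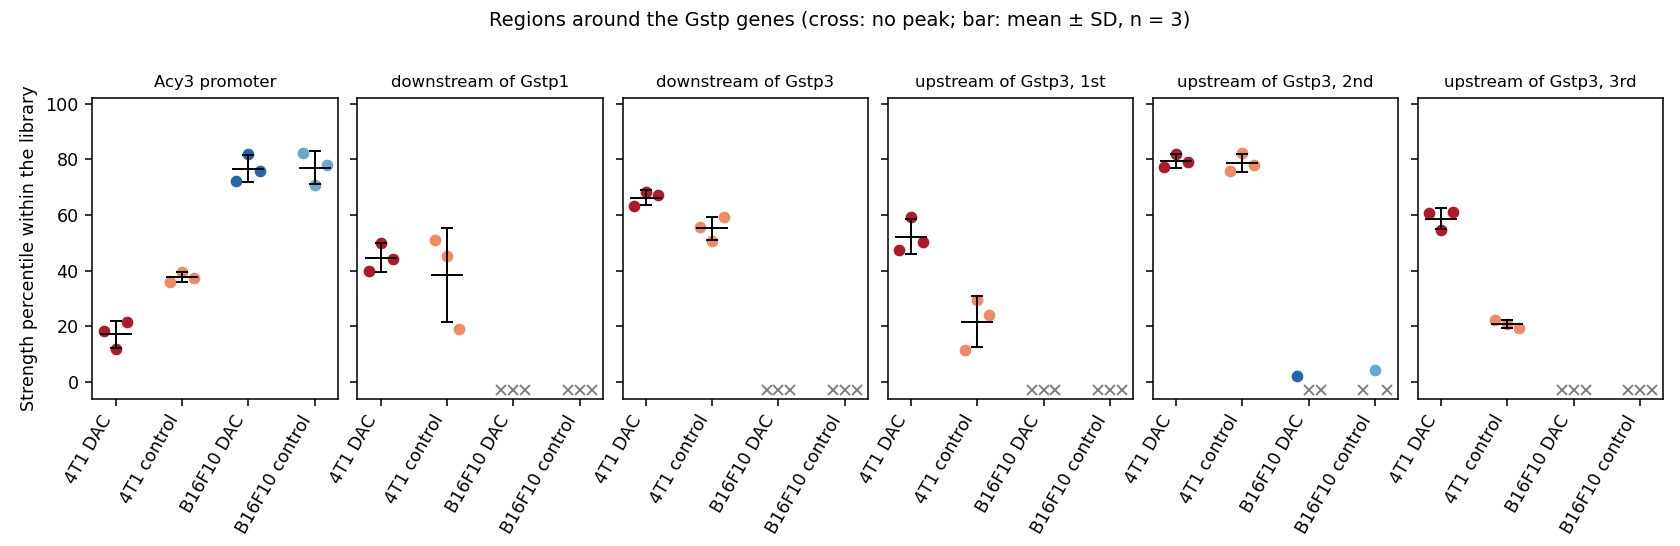
Strength percentile within its library (y axis, 0 to 100) of 6 regions around the Gstp genes, 1 point per library, with the mean ± SD (n = 3) and a cross where a library had no peak. Percentiles of the 1st and 3rd elements upstream of Gstp3 and of the region downstream of Gstp3 are higher in every 4T1 DAC library than in any 4T1 control, and those of the Acy3 promoter are lower.

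Within 50 kb of the members, peaks of the 12 libraries merged into 30 regions. Of these 7 were called in all 12 libraries, as were 12.6% of all merged regions. They included the Gstp1 main start, the promoters of the complex I subunit gene Ndufv1, of Nudt8, Cdk2ap2, Pitpnm1 and Acy3, and an intergenic region at chr19:4018682-4019761. Called in all 6 4T1 and in no B16F10 library were 5 regions, as were 19% of all merged regions. The reverse held for 1 region, at chr19:4027376-4028333, and for 5.34% of all. The 4T1 region nearest to Gstp1, at chr19:4034562-4034886 just past its 3′ end, had fold enrichments of 4.58, 5.26 and 5.26 under DAC and 7.30, 6.19 and 3.65 in controls, which overlapped.

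Among the neighbours, the promoter of Acy3, which encodes an aminoacylase, was weaker in 4T1 under DAC. Its fold enrichment was 3.44 ± 0.393 under DAC and 7.61 ± 0.0976 in controls (SD, n = 3 each), and its percentile differed by −20.5 points, without overlap in either. The promoters of Cdk2ap2 and Nudt8 were higher in every 4T1 DAC than in every 4T1 control library in both measures. Fold enrichment at Cdk2ap2 was 10.95 ± 0.353 against 9.75 ± 0.220 (SD, n = 3 each). The strongest peak over all starts of Pitpnm1 was not the same peak in B16F10 DAC and control libraries. In controls it lay in the region chr19:4099088-4100438 at its 5′ start, with fold enrichments of 4.77 to 5.43. In B16F10 DAC libraries that region had 3.79 to 4.94, which overlapped the controls. The strongest peak under DAC, with 10.4 to 13.9, was a different one, and its strength in controls is not given here. Cabp2, a calcium-binding protein gene on the plus strand (chr19:4081578-4087340), had a called transcript start near its 3′ end and no peak at its 5′ end. The peak, within chr19:4087045-4087434, was called in 0 of 3 4T1 DAC and 3 of 3 4T1 control libraries and in no B16F10 library. It was weak, with fold enrichments of 4.29 to 5.09 and percentiles of 10.5 to 20.9 in 4T1 controls. Of all protein-coding genes, 79 (0.36%) were called in 4T1 controls alone and 19 (0.0866%) in B16F10 controls alone. The snoRNA Gm23927 and the gene Doc2g had no promoter peak in any library.

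**Figure D4:**
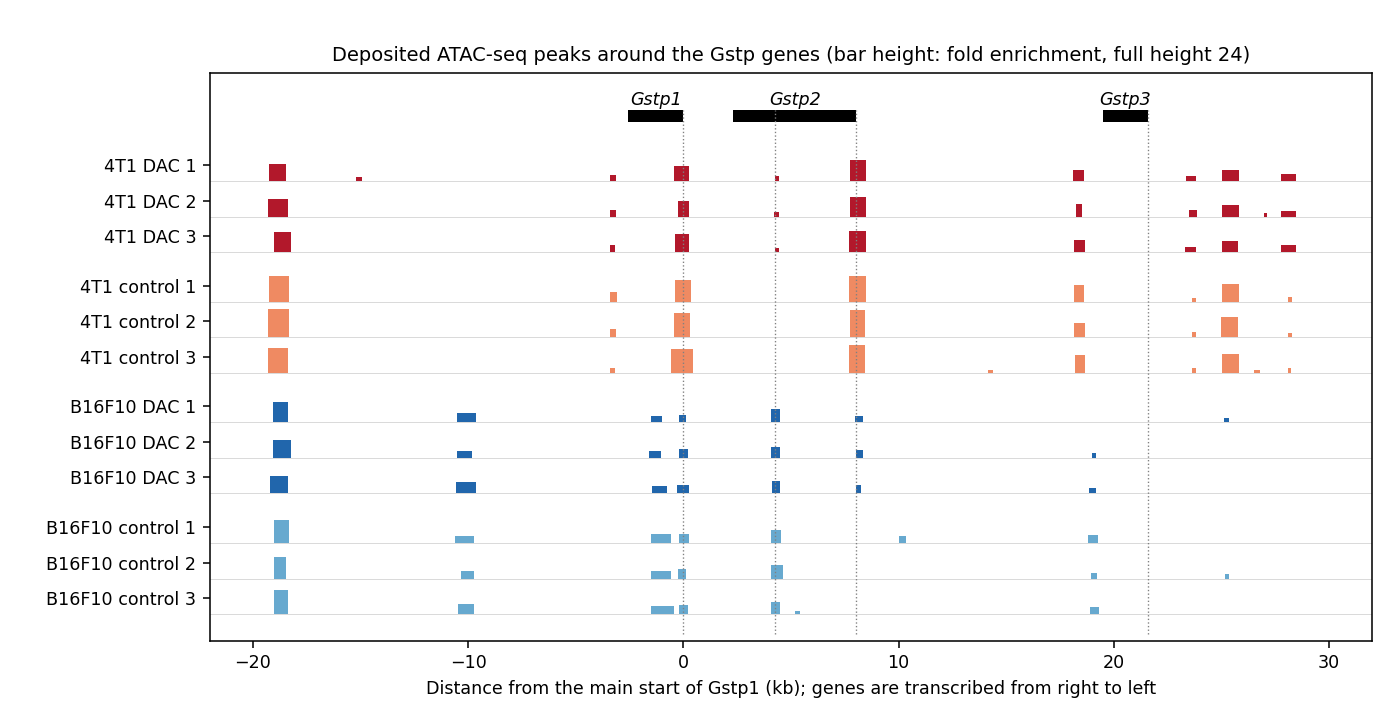
Deposited peaks of the 12 libraries from 22 kb downstream to 32 kb upstream of the main start of Gstp1 (x axis, kb), 1 row per library. Bars span each peak and their height is its fold enrichment on a linear scale, genes are drawn above, and dotted lines mark the starts. The proximal Gstp2 start has low bars in 4T1 DAC rows and none in 4T1 control rows, and the upstream start has bars in B16F10 DAC rows and none in B16F10 control rows.

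The flanks of 50 kb on either side, taken without the gene bodies and start windows of the members, were among the values known when the genes were chosen, so they are described without a test. They held 15, 15 and 12 peaks in 4T1 DAC libraries against 14, 15 and 16 in 4T1 controls, and 10, 12 and 9 in B16F10 DAC libraries against 13, 12 and 10 in B16F10 controls. The groups overlapped in both lines, and the mean difference over both was −1.17 peaks.

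Peaks covered 8430 ± 266 bp of the flanks in 4T1 DAC and 9320 ± 293 bp in 4T1 control libraries, and 7391 ± 600 bp in B16F10 DAC and 7846 ± 789 bp in B16F10 control libraries (SD, n = 3 each). Every 4T1 DAC library covered less than every 4T1 control, and the B16F10 groups overlapped. The mean difference over both lines was −673 bp, and with flanks of 25 kb it was 254 bp, with DAC above controls.

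Other genes of glutathione metabolism were counted by the same call. Of 24 other glutathione transferase genes, 19 had a promoter peak in all 6 4T1 libraries, as did 59.3% of all 21938 genes, and 15 in all 6 B16F10 libraries, as did 52.7% of all genes. DAC libraries alone called 1 of them in 4T1, Gstm3, a mu-class transferase, with fold enrichments of 5.66, 4.66 and 3.98 and no peak in any other library, where 4.42% of all genes had such a call. No member of this list was called in DAC libraries alone in B16F10 (0.283% of all genes) or in control libraries alone in either line. In 4T1 the list's median percentile difference was 3.14 points over the genes called in all 6 libraries, and 2.74 points over all start sites called in all 6.

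Of 27 genes of glutathione synthesis, use and transport, 20 were called in all 6 4T1 libraries and 19 in all 6 B16F10 libraries. Of 16 genes of the NRF2 pathway, which switches on glutathione genes under oxidative stress, all 16 were called in all 6 4T1 libraries and 15 in all 6 B16F10 libraries, beside the same 59.3% and 52.7% of all genes. Neither list had a gene called in DAC or in control libraries alone in either line. Nqo1, a quinone reductase and NRF2 target, was the pathway gene without a B16F10 peak.

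The genes whose promoter percentiles over the 12 libraries came closest to those of Gstp1, taken at each gene's strongest start, were Robo3, Map1b, Ntpcr, Cavin1 and Nup133, with mean absolute differences of 2.17, 2.25, 2.31, 2.33 and 2.34 points. Those closest to Gstp2 were Syne1 at 1.35, Soat1 at 1.79, Rffl at 1.84, and Rmnd1 and Armt1 at 1.88 points, the last 2 sharing their promoter peaks. The strongest start of Gstp2 is the upstream one in 4T1 and the proximal one in B16F10, so this likeness joins 2 promoters. Gstp3, with no peak, has no such genes.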

How the data were processed

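The files were 12 ATAC-seq peak lists, 1 per library, in the narrowPeak layout. Per the submitters' processing notes, mm10, Bowtie2, Picard, MACS2, DiffBind and ChIPseeker were used, with no version or role given. The deposited fold enrichment is a ratio to local background, from the authors' peak caller. In the deposited lists, −log10 p-values and −log10 q-values are each peak's own, grow with depth, and the score deposited is 10 times the −log10 q-value without decimals. The summit position is also the authors'. Every deposited list ended at q 0.05. Read length and the treatment of reads that match several places are not given in the sources used here.

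Peaks on the 21 assembled chromosomes were kept. All 58468 peaks of the list of B16F10 DAC replicate 2 lie on them, while each other list also had peaks on scaffolds or patches. No peak of 936254 ran past the end of its GRCm38 chromosome. Genes came from GENCODE M21. A call needs 1 bp of overlap, and where several peaks reached a window the strongest was used. Calls in DAC libraries alone mean 3 of 3 against 0 of 3. Regions are peaks of all libraries merged where they overlapped by 1 bp. Sequence windows of 36 to 150 bases were counted on both strands of the genome, and alignments used Biopython 1.88. Permutation p-values of the flank differences are not given, since peaks within 50 kb were among the values known when the genes were chosen. Window calls, strongest peaks, calls in DAC libraries alone and merged regions were checked on simulated peaks with known answers. The other measures given here were not. The named genes are the members, annotated genes within 50 kb, the Gstp pseudogene, glutathione-list genes called in 1 arm alone, and the 5 genes of most similar percentile per member. The members, lists and tests were chosen with earlier results of these data known, and the TATAA letters and the summit shift were added after the sequences and summits were seen. Other thresholds, list lengths, windows, flanks and libraries left out were tried. Gsta13 was not matched in the annotation.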

Additional observations from a re-analysis of the deposited data

How the results depend on the processing

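Calls at the member starts were the same without each library in turn (12 ways). This holds by construction, since each group was called in all or none of its libraries. With a fold enrichment of at least 5, the DAC share minus the control share at the proximal Gstp2 start in 4T1 was 0 in place of 1, the internal Gstp1 start was called in a share of 0.667 of B16F10 libraries with a percentile difference of −35.8, and gene counts were 258 in DAC and 272 in controls alone in 4T1 and 41 in DAC alone in B16F10. With equal list lengths the 4T1 percentile differences were −6.13 at the main Gstp1 and −3.19 at the upstream Gstp2 start, and 524 and 186 genes were called in 4T1 DAC and control libraries alone. With windows of 2000 bp the DAC minus control share at the upstream Gstp2 start in B16F10 was 0.667. The internal Gstp1 start then reached the main peak (share 1 in 4T1, B16F10 difference −1.29). The Gstp3 start was called in a share of 0.333 of libraries. In 4T1 these were all DAC and no control libraries, where the wider window met the edge of the repeat-masked element chr19:4061293-4061853. The other was B16F10 control replicate 3, through the region chr19:4056791-4057299. With at least 2 of 3 libraries, 128 genes were called in 4T1 controls alone and 192 and 65 in B16F10 DAC and control libraries alone. Leaving out 1 library gave B16F10 percentile differences at the main Gstp1 start of −2.78 to 1.62 (1.62, above 0, without B16F10 DAC replicate 1), and 62 to 121 genes in B16F10 DAC and 19 to 38 in B16F10 controls alone.

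In the flanks the difference was −1.33 peaks and −696 bp at −log10 q of at least 5, −2.83 peaks and −1162 bp with equal list lengths, and 254 bp in covered length with flanks of 25 kb, with DAC above controls. Leaving out 1 library gave −887 to −499 bp, with −840 bp without B16F10 DAC replicate 2 and −887 bp without B16F10 control replicate 2. The replicate block leaves the differences at −1.17 peaks and −673 bp by construction. Same-numbered DAC and control libraries correlated at −0.107 to 0.055 in their deviations over start sites, and differently numbered ones at −0.0503 to 0.0813. Same-numbered libraries thus showed no shared deviation in peak rank. Whether the numbers pair cultures or days cannot be told from these values. The causes were not tested. Of the values recomputed, 2 reversed in direction. Lists without reads limit all values to intervals past q 0.05.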

Other observations

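Slc7a11, which encodes the cystine importer that supplies cysteine for glutathione synthesis, stood out in the glutathione lists and was chosen after its values were seen. Its promoter was called in all 12 libraries. Fold enrichment was 19.1, 19.4 and 22.8 in 4T1 DAC libraries, against 10.1, 10.8 and 11.0 in 4T1 controls, and percentiles were 84.5, 86.2 and 87.3 under DAC against 67.9, 71.3 and 69.7 in controls. Every 4T1 DAC library was above every control in both measures. So were 18.8% of 4T1 start sites called in all 6 by fold enrichment and 57.6% by percentile. These shares are of single start sites, while the values of Slc7a11 are those of the strongest peak over all its starts. In B16F10 the fold enrichments were 11.4, 9.17 and 10.2 under DAC and 11.1, 13.9 and 11.6 in controls, which overlapped. The difference between the lines was not tested.

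Of the list genes, 2 were called in all 6 B16F10 and no 4T1 library, as were 0.875% of all 21938 genes, and 6 in all 6 4T1 and no B16F10 library, as were 6.11%. They were named after their calls were seen. Hpgds, the sigma-class transferase that makes prostaglandin D, and Gpx2, a glutathione peroxidase of epithelia, made up the first set. Nqo1, Gsta4, Gstm4, Gstt1, Gstk1 and Ggt6 made up the second.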
